A study of Homo sapiens with 18 samples.

Results

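Canonical Polycomb repressive complex 1 (PRC1) carries a chromodomain CBX subunit and a polyhomeotic PHC subunit. Expression of 9 genes of this kind was followed in PCGF6-knockout (PCGF6-KO) cells: CBX2, CBX6, CBX7, CBX8, PHC1, PHC2, PHC3, and the associated SCMH1 and SCML2. They were taken by name from the RNA-seq count table of 57133 genes, and all 9 passed the filter on low counts, among 17672 genes tested. CBX8 passed it only through its level in the PCGF6-KO libraries. The 9 genes did not move as a group. In the 4 PCGF6-KO libraries CBX2, PHC1 and SCMH1 were lower than in the 2 wild-type (WT) libraries, and CBX8 and PHC2 were higher, while CBX6, CBX7, PHC3 and SCML2 were not called.

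The cells were PGP1, an established human induced pluripotent stem cell line, kept as feeder-free cultures on Matrigel in mTeSR1 medium. WT cells were compared with the mutant lines PCGF6-KO clone 1 and clone 2, each group with 2 libraries. In both mutant lines CRISPR-Cas9 had deleted sequence in the first exon of PCGF6, with a different deletion in each clone. Each mutant line is 1 clone, so a difference between a line and WT cannot be told apart from a difference of that clone. No label says whether replicate libraries came from separate cultures, so the p-values measure only the spread between these libraries. Within WT or a clone that spread may be technical. For PCGF6-KO against WT the 4 libraries of the 2 clones were fitted as 1 group. The spread there also holds the difference between the clones, and the 2 libraries of a clone are not independent replicates of the knockout. The libraries held between 15877396 and 18918609 counts.

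In canonical PRC1, RING1 or RNF2 ubiquitinates histone H2A and is held by BMI1 or PCGF2. The CBX subunit reads the H3K27 methylation written by PRC2, and in embryonic stem cells of the mouse Cbx7 is the known main reader. PHC subunits polymerise through a SAM domain and so bring PRC1-bound chromatin together, and SCMH1 and SCML2 join them through a SAM domain of their own beside MBT repeats. PCGF6 belongs to a variant PRC1 that recruits RING1 or RNF2 without a Polycomb CBX or PHC subunit, and that holds the HP1 protein CBX3 instead.

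Each gene was called changed where edgeR's quasi-likelihood test gave a Benjamini-Hochberg adjusted p under 0.05 over all genes tested together with an absolute log2 fold change over 0.6. Levels within a gene are given as CPM, the counts relative to the TMM-scaled library size, and levels between genes as CPM per kilobase of the deposited gene length (RPKM). PCGF6 itself held 16.5 and 18.0 CPM in WT, 5.18 and 5.67 CPM in clone 1, and 10.3 and 9.91 CPM in clone 2. Its log2 fold change in PCGF6-KO was −1.15 (SE 0.268, adjusted p = 0.00914), so the transcript was lower in both clones but still present, and clone 2 was above clone 1 by 0.90 on the log2 scale (adjusted p = 5.44e-05). A count over the whole gene does not show how much protein is made.

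The genes lie on 6 chromosomes of GRCh38, in the gene models of GENCODE release 44. CBX2 (chr17:79778148-79787983, forward strand) and CBX8 (chr17:79792132-79801683, reverse strand) are neighbours. CBX6 (chr22:38861422-38872249) and CBX7 (chr22:39120167-39152680) share chromosome 22 on the reverse strand. PHC1 (chr12:8913896-8941467) is on the forward strand. PHC2 (chr1:33323623-33431095), PHC3 (chr3:170086732-170181749), SCMH1 (chr1:41027202-41242306) and SCML2 (chrX:18239313-18354688) are on the reverse strand. Neither CBX2 nor CBX6 overlaps another annotated gene. The strand setting of the counting is not given in the sources used here, so reads of overlapping genes may have been left out or mixed. PHC1 overlaps the opposite-strand gene M6PR, whose log2 fold change was −0.09 (adjusted p = 0.319), and SCMH1 overlaps SLFNL1-AS1, whose log2 fold change was 0.00 (adjusted p = 0.999). CBX7, CBX8, PHC2, PHC3 and SCML2 overlap only genes that were not among those tested.

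The study also profiled MAX, MYC and E2F6, and the sequence before the start site was therefore searched for the E-box CACGTG, a palindrome recognised by MAX dimers, and for GCGGGAA, a form of the E2F6 motif, on both strands. Neither motif contains the other. RefSeq promoter windows of GRCh38.p14, from 250 bases before to 50 bases after a start, were given for 7 of the 9 genes in 9 windows, and not for CBX2 or CBX8. The E-box stood in 1 window each of PHC2, PHC3 and CBX6, and GCGGGAA, read on the reverse strand, in the window of SCMH1. No match stood in the windows of PHC1, CBX7 and SCML2 or in the second window of PHC2. Of all 35116 windows, 7.26% held the E-box and 6.55% held GCGGGAA. For the 4 windows with a match, the last 150 bases before the start are printed 5′ to 3′ on the strand of the gene, to show where in a promoter of a called gene (PHC2, SCMH1) and of a gene not called (PHC3, CBX6) the match stands. They are chr1:33431096-33431245 for PHC2, chr1:41242307-41242456 for SCMH1, chr3:170181734-170181883 for PHC3 and chr22:38872217-38872366 for CBX6, all on the reverse strand. Capitals mark the motif, whose first base lies 52 bases before the start of PHC2, 43 before that of SCMH1, 79 before that of PHC3 and 121 before that of CBX6.
PHC2: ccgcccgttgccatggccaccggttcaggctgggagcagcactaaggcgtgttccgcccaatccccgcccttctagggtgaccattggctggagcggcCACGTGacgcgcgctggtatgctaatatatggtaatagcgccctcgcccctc
SCMH1: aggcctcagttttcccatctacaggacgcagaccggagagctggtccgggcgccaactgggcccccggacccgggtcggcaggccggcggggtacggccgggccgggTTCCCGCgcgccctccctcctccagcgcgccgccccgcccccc
PHC3: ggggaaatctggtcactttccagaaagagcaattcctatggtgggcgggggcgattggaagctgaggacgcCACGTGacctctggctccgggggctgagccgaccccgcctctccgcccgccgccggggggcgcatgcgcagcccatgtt
CBX6: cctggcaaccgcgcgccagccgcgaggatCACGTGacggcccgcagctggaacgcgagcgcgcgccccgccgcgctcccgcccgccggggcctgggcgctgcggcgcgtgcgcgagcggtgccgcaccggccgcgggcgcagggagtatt
A match describes the letters only. Binding at these windows was not analysed here.

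Per length, PHC1 was by far the most abundant of the 9 genes in WT cells, at 129 RPKM ± 3.72 (SD, n = 2). CBX2 followed at 33.3 ± 0.0256, SCML2 at 12.0 ± 0.302 and SCMH1 at 8.08 ± 0.931 RPKM. CBX6 stood at 5.14 ± 0.269, PHC2 at 1.54 ± 0.0956 and PHC3 at 1.38 ± 0.0267 RPKM. The lowest were CBX7 at 0.447 ± 0.0497 and CBX8 at 0.145 ± 0.0387 RPKM. In this order no pair of neighbours overlapped between the libraries in WT, although PHC2 and PHC3 lay close together. Without division by length PHC3 stood above PHC2 in WT, at 23.4 against 7.65 CPM. In clone 2, PHC2 (4.29 ± 0.104 RPKM) stood above CBX6 (2.84 ± 0.0640) and within 1 SD of SCMH1 (4.70 ± 0.460). CBX8 stood above CBX7 in clone 1 (0.458 ± 0.0619 against 0.368 ± 0.0639 RPKM) and in clone 2 (0.535 ± 0.0263 against 0.278 ± 0.0148), the reverse of the order in WT.

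Against WT, PCGF6-KO had 2 of the 9 genes called higher, where 14.9% of all genes tested were called higher, and 3 called lower, where 8.70% were called lower. The count of higher genes includes CBX8, which was tested only because of its level in the mutant libraries. Over the 9 genes the median change was −0.47 on the log2 scale, beside 0.00 over all genes tested.

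**Figure D1:**
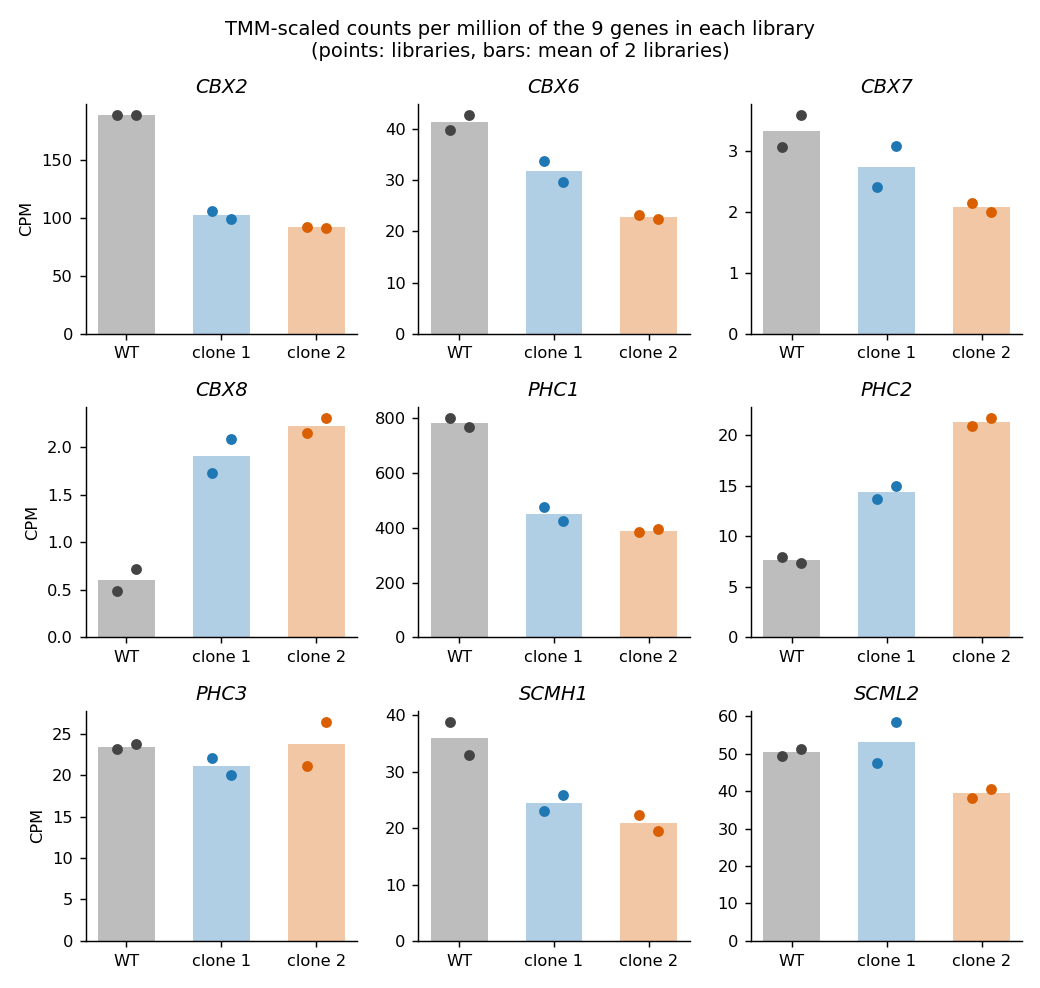
Expression of the 9 genes in the 6 libraries, in TMM-scaled CPM on linear axes that start at 0 and differ between panels. Points are libraries and bars are the mean of the 2 libraries of WT, PCGF6-KO clone 1 and PCGF6-KO clone 2. Both clones lie below WT for CBX2, CBX6, PHC1 and SCMH1 and above it for CBX8 and PHC2.

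Among the 4 CBX genes described here, CBX2 was the most abundant. Its product compacts nucleosomes besides binding methylated H3K27. CBX2 held 189 and 189.5 CPM in WT, 106 and 99.0 CPM in clone 1, and 92.1 and 91.8 CPM in clone 2. All 4 mutant libraries were below both WT libraries, and clone 2 was a little below clone 1. The log2 fold change was −0.96 (SE 0.0719, adjusted p = 1.35e-05), which is 0.513 times the WT level. It was called lower in each of the 13 alternative fits.

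CBX8, another reader of H3K27 methylation, moved the other way. CBX8 held 0.491 and 0.719 CPM in WT, 1.73 and 2.09 CPM in clone 1, and 2.15 and 2.31 CPM in clone 2. The WT libraries had 8 and 12 counts and the mutant libraries 33, 38, 39 and 37, so the groups were well apart although the gene remained near the low end of what was tested. The log2 fold change was 1.76 (SE 0.309, adjusted p = 0.00214), or 3.38-fold, with a 95% interval from 1.05 to 2.46. It passed the filter on low counts only through its level in the mutant libraries, since the WT libraries alone would not have passed. Its place among the genes tested therefore depended on the rise itself. Asking for 10 or more counts in each library removed CBX8.

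CBX6, a chromodomain protein whose part in PRC1 is less well known, held 39.7 and 42.8 CPM in WT, 33.7 and 29.7 CPM in clone 1, and 23.2 and 22.4 CPM in clone 2. The groups did not overlap, with clone 1 in between. Its log2 fold change of −0.60 (SE 0.158, adjusted p = 0.0163) passed the test but stood just inside the fold threshold, at −0.597, and so it was not called. Without clone 1 replicate 1 the value was −0.71 and without clone 1 replicate 2 it was −0.63, and CBX6 was called in both cases. At 0.661 times the WT level it was also called with a fold change over 1.5, in either direction, as the threshold.

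CBX7 was sparse in these cells, at 3.07 and 3.60 CPM in WT, 2.41 and 3.08 CPM in clone 1, and 2.15 and 1.99 CPM in clone 2. The highest mutant library reached the lower WT library, so the groups overlapped. The log2 fold change was −0.47 (SE 0.238, adjusted p = 0.16), with a 95% interval from −1.01 to 0.08.

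Of the PHC genes, PHC1 carried most of the RNA. PHC1 held 800.3 and 768 CPM in WT, 475 and 424 CPM in clone 1, and 383 and 397 CPM in clone 2. Every mutant library was below both WT libraries. The log2 fold change was −0.90 (SE 0.0852, adjusted p = 5.68e-05), or 0.535 times the WT level. The processed pseudogene PHC1P1 (chr12:55411727-55414787, reverse strand) is a copy of PHC1 from which reads can be hard to tell, and its counts were between 18.1 and 19.9% of those of PHC1 in every library. Its log2 fold change was −0.89 (SE 0.104, adjusted p = 0.000209). The treatment of reads that map to both is not given in the sources used here, so the level of PHC1 is uncertain, and the counts do not say how much each locus was transcribed.

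PHC2, a paralog of PHC1 with the same type of SAM domain, held 7.98 and 7.31 CPM in WT, 13.7 and 15.0 CPM in clone 1, and 21.0 and 21.7 CPM in clone 2. The groups did not overlap, and clone 2 stood above clone 1. The log2 fold change was 1.22 (SE 0.215, adjusted p = 0.00214), or 2.33-fold. PHC3, the third paralog, held 23.1 and 23.7 CPM in WT, 22.1 and 20.0 CPM in clone 1, and 21.1 and 26.4 CPM in clone 2. Its log2 fold change was −0.06 (SE 0.120, adjusted p = 0.71), and the 95% interval from −0.34 to 0.21 held no change as large as the fold threshold. The promoters of PHC2 and PHC3 shown above both carry the E-box, and only PHC2 was called. The second window of PHC2 held no match, and a link between the motif and the change was not tested.

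SCMH1 held 38.9 and 33.0 CPM in WT, 23.1 and 25.9 CPM in clone 1, and 22.3 and 19.4 CPM in clone 2. The mutant libraries were all below WT, with a log2 fold change of −0.66 (SE 0.121, adjusted p = 0.00255). The call was lost without WT replicate 1, at −0.54, and without clone 2 replicate 2, at −0.59. SCML2, its relative on the X chromosome, held 49.5 and 51.3 CPM in WT, 47.6 and 58.5 CPM in clone 1, and 38.3 and 40.6 CPM in clone 2. Its log2 fold change was −0.12 (SE 0.155, adjusted p = 0.569, 95% interval −0.47 to 0.23). The WT libraries lay between the libraries of clone 1 and above those of clone 2.

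A fit with 3 groups then set each clone beside WT. Both comparisons use the same WT libraries and are not independent. In clone 1, 2 of the 9 genes were called higher (CBX8 and PHC2), where 16.0% of all genes tested were, and 2 lower (CBX2 and PHC1), where 8.80% were. In clone 2, the same 2 were called higher, where 16.9% of all genes tested were, and 5 lower (CBX2, CBX6, CBX7, PHC1 and SCMH1), where 12.5% were. Both counts of higher genes include CBX8, which was tested only because of its level in the mutant libraries. The median change on the log2 scale was −0.28 in clone 1 and −0.68 in clone 2, beside 0.00 over all genes tested in each.

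**Figure D2:**
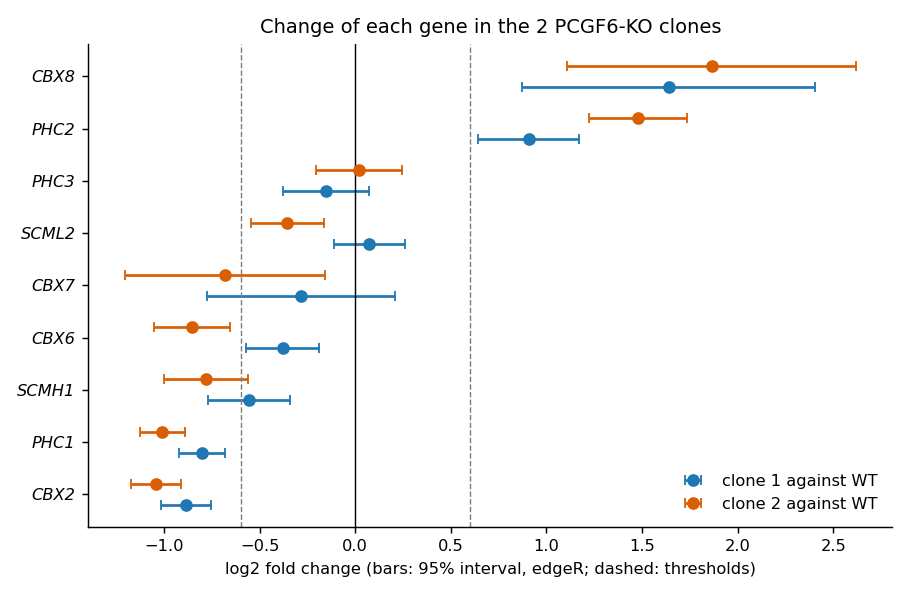
Log2 fold change of each of the 9 genes in clone 1 and clone 2 against WT, with 95% intervals from edgeR's quasi-likelihood fit with 3 groups, and with dashed lines at the fold thresholds. CBX2 and PHC1 lie below the threshold and CBX8 and PHC2 above it in both clones, and the intervals of PHC3 include 0.

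CBX2 fell by 0.89 on the log2 scale in clone 1 (SE 0.0630, adjusted p = 6.48e-12) and by 1.04 in clone 2 (SE 0.0638, adjusted p = 2.18e-13). PHC1 fell by 0.80 (SE 0.0575, adjusted p = 7.67e-12) and by 1.01 (SE 0.0579, adjusted p = 5.97e-14). These were the 2 genes with the smallest adjusted p of the 9 in each clone.

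CBX8 rose by 1.64 in clone 1 (SE 0.372, adjusted p = 0.000717) and by 1.86 in clone 2 (SE 0.366, adjusted p = 0.000125), with wide errors because of its low counts. PHC2 rose by 0.91 (SE 0.128, adjusted p = 1.67e-06) and by 1.48 (SE 0.124, adjusted p = 1.24e-10). Both genes were called in each clone.

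SCMH1 stood at a log2 fold change of −0.55 in clone 1 (adjusted p = 8.42e-05, not called) and of −0.78 in clone 2 (adjusted p = 7.96e-07, called). The value in clone 1 was −0.66 without WT replicate 2 and −0.62 without clone 1 replicate 2, past the fold threshold in both. For CBX6 the values were −0.38 (adjusted p = 0.00142) and −0.86 (adjusted p = 3.23e-08). CBX7 stood at −0.28 (adjusted p = 0.349) and −0.68 (adjusted p = 0.0275), and its call in clone 2 was lost without WT replicate 2 (−0.57, adjusted p = 0.167), without clone 2 replicate 1 (−0.73, adjusted p = 0.077), without clone 2 replicate 2 (−0.63, adjusted p = 0.107) and under DESeq2 (−0.68, adjusted p = 0.204). PHC3 stood at −0.15 (adjusted p = 0.27) and 0.02 (adjusted p = 0.908), and SCML2 at 0.07 (adjusted p = 0.538) and −0.36 (adjusted p = 0.00236), neither called.

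Whether the clones differ was tested directly, clone 2 against clone 1. None of the 9 genes was called by edgeR's quasi-likelihood test, and none by DESeq2, where edgeR called 3.73% of all genes tested higher and 4.14% lower. Without the fold threshold 4 of the 9 had an adjusted p under 0.05, where 19.5% of all genes tested did, and 6 had an unadjusted p under 0.05, where 30.8% did. PHC2 was higher in clone 2 by 0.57 (SE 0.111, adjusted p = 0.000466), and without clone 1 replicate 2 the value was 0.63 and PHC2 was called. CBX6 was lower in clone 2 at −0.48 (SE 0.0974, adjusted p = 0.000822), SCML2 at −0.43 (SE 0.0919, adjusted p = 0.0013) and PHC1 at −0.21 (SE 0.0577, adjusted p = 0.0117). The difference in PHC1 rested on single libraries, at −0.12 (adjusted p = 0.177) without clone 1 replicate 1 and −0.18 (adjusted p = 0.111) without clone 2 replicate 1. SCML2 stood at −0.28 (adjusted p = 0.0413) without clone 1 replicate 2. Clone 2 minus clone 1 was −0.16 for CBX2 (95% interval −0.29 to −0.02, adjusted p = 0.0938), −0.23 for SCMH1 (adjusted p = 0.161) and 0.17 for PHC3 (adjusted p = 0.309). For the sparse genes the intervals were wide, from −0.93 to 0.13 for CBX7 and from −0.37 to 0.82 for CBX8.

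The make-up of each family was described by the share of each gene in the summed RPKM of the 4 CBX genes, or of the 3 PHC genes, within a library. The shares are a description, and no test was run on them. CBX2 made up 85.3% ± 0.771 of the sum of the 4 CBX genes in WT (SD, n = 2), 79.1% ± 0.00552 in clone 1 and 81.6% ± 0.182 in clone 2. CBX8 went from 0.372% ± 0.0954 to 2.02% ± 0.370 and 2.70% ± 0.145. CBX6 went from 13.2% ± 0.559 to 17.3% ± 0.735 and 14.3% ± 0.258, although its own level was lower in both clones.

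CBX7 took between 1.06 and 1.23% of the sum in WT and between 1.35 and 1.88% in the mutant libraries. WT and mutant libraries did not overlap for any of these 4 shares. The smallest two-sided permutation p for 2 against 4 libraries is 0.133, so such a separation alone decides nothing. CBX2 remained the main transcript of the 4 in every library. The 4 shares are not separate results, since a lower share of CBX2 raises the others. The level of CBX7 itself overlapped between WT and mutant libraries. The summed level of the 4 CBX genes was lower in the mutants, at 39.0 RPKM ± 0.383 in WT, 22.8 ± 1.11 in clone 1 and 19.8 ± 0.0895 in clone 2.

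In the PHC family PHC1 made up 97.8% ± 0.0115 of the sum in WT, 94.7% ± 0.527 in clone 1 and 91.8% ± 0.246 in clone 2. PHC2 went from 1.17% ± 0.0391 to 3.72% ± 0.517 and 6.15% ± 0.0172, and PHC3 from 1.05% ± 0.0505 to between 1.59 and 2.20% in the mutant libraries. PHC1 thus remained the main PHC transcript in every library. With counts not divided by gene length, PHC3 had a larger share than PHC2 in every library. The summed PHC level was 132 RPKM ± 3.79 in WT, 78.0 ± 5.82 in clone 1 and 69.7 ± 1.89 in clone 2.

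**Figure D3:**
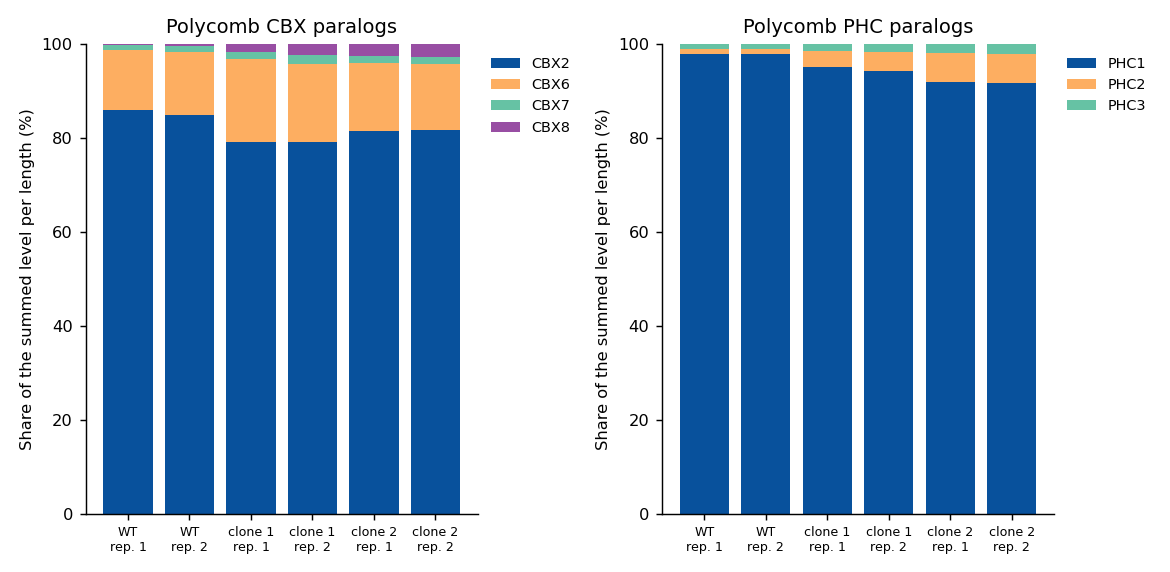
Share of each paralog in the summed level per gene length, in percent, for the 4 CBX genes (left) and the 3 PHC genes (right), with 1 bar for each of the 6 libraries. CBX2 takes 84.8 and 85.9% of the CBX sum in WT and between 79.1 and 81.7% in the mutant libraries, and PHC1 takes between 91.7 and 97.8% of the PHC sum.

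CBX2 and CBX8 stand side by side on chromosome 17. They are transcribed towards each other, and their ends are 4148 bases apart. The direction of change differed between these neighbours, with CBX2 lower and CBX8 higher in both clones. On the other side of CBX2 the nearest tested gene, RBFOX3, a neuronal splicing factor, was 167096 bases away and stood at −2.11 on the log2 scale (adjusted p = 6.58e-06).

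**Figure D4:**
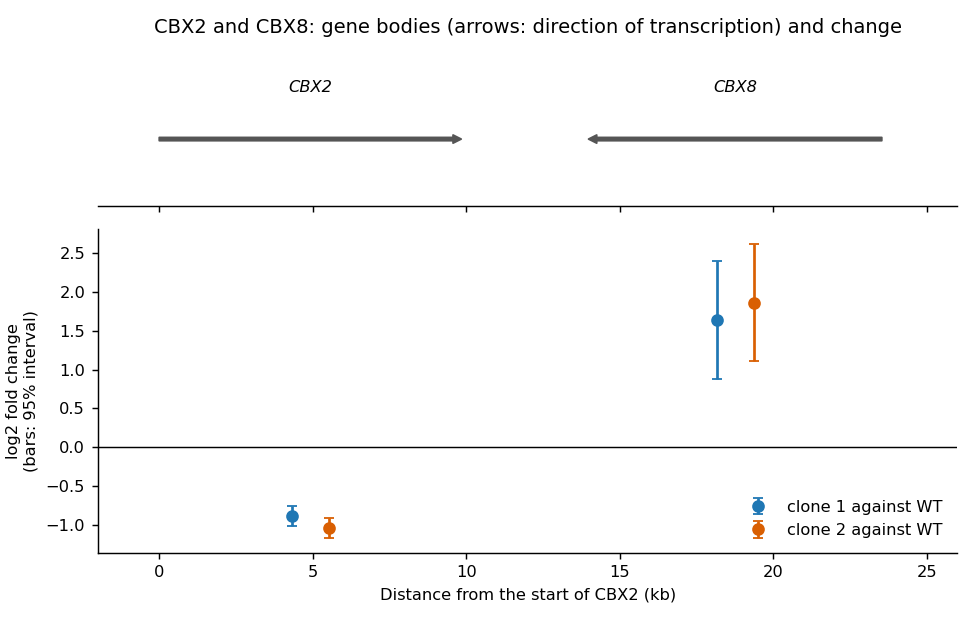
The CBX2 and CBX8 genes drawn to scale by distance from the start of CBX2 in kilobases, with arrows for the direction of transcription, above the log2 fold change of each gene in clone 1 and clone 2 against WT with 95% intervals. CBX2 lies below 0 and CBX8 lies above 0 in both clones.

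The nearest tested genes of the other called members were compared too. Beside PHC1, A2ML1 stood at −0.09 on the log2 scale (adjusted p = 0.617) and KLRG1 at −0.53 (adjusted p = 0.14). Beside PHC2, ZNF362 stood at 0.30 (adjusted p = 0.0275) and the zinc finger gene ZSCAN20 at 0.94 (adjusted p = 0.0171), and only ZSCAN20 was called. Beside SCMH1, SLFNL1 stood at 0.79 (adjusted p = 0.182) and FOXO6 at −0.69 (adjusted p = 0.0807), neither called.

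The genes with the most similar pattern over the 6 libraries were found by the root-mean-square difference of centred log2 CPM. For CBX2 they were ADAMTS7 (0.0373) and ALDH1B1 (0.0451), and for PHC1 they were ADAMTS7 (0.0180) and the pseudogene PHC1P1 (0.0390). For PHC2 they were ZNF701 (0.0546) and PKP2 (0.0598), for CBX8 IMPG1 (0.0827) and FJX1 (0.0828), and for SCMH1 FBXO44 (0.0309) and ARHGEF25 (0.0534). These are descriptions with no test.

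Of 4 partners of the canonical core tested, 1 was called higher in PCGF6-KO and none was called lower. Over all genes tested 14.9% were called higher and 8.70% lower, the shares to set beside this count and those of the lists below. BMI1, which holds RING1 or RNF2, stood at 1.81 on the log2 scale (SE 0.215, adjusted p = 0.000221). RING1, RNF2 and PCGF2 were not called and stood between 0.10 and 0.15. The median of the list was 0.13, beside 0.00 over all genes tested.

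None of the 3 HP1 genes, which carry a CBX name but read H3K9 methylation instead, was called by edgeR's test. CBX5 had the largest change of them, at −0.47 (adjusted p = 0.00128), and 3 of 3 had an unadjusted p under 0.05, where 46.3% of all genes tested did. Among 8 relatives of SCMH1 and SCML2 with MBT or SAM domains, 7 were tested and only SCML1 was called, higher, at 1.44 (SE 0.173, adjusted p = 0.000235). SCML1 is a SAM gene of the X chromosome like SCML2, which was not called.

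Of 11 genes of variant PRC1 complexes, 3 were called higher, where 14.9% of all genes tested were, and 2 lower, where 8.70% were. YAF2, an adaptor of variant PRC1, stood at 2.60 (adjusted p = 4.81e-05), FBRS at 0.86 (adjusted p = 0.000177) and PCGF1 at 0.64 (adjusted p = 0.0281). BCOR, a partner of PCGF1, stood at −0.65 (adjusted p = 9.09e-05) and AUTS2 at −0.69 (adjusted p = 3.71e-05).

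Of 12 genes that write or erase H3K27 methylation, the mark that the CBX proteins read, 2 were called higher and 1 lower. These counts were near the shares over all genes tested, 14.9% higher and 8.70% lower. KDM6B, an H3K27 demethylase, stood at 1.78 (adjusted p = 2.69e-06), PHF19, a PRC2 accessory subunit, at 0.74 (adjusted p = 0.00188), and the histone chaperone RBBP7 at −0.66 (adjusted p = 3.1e-05). EZH2, the main methyltransferase, stood at 0.28 (adjusted p = 0.00776) and was not called.

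**Figure D5:**
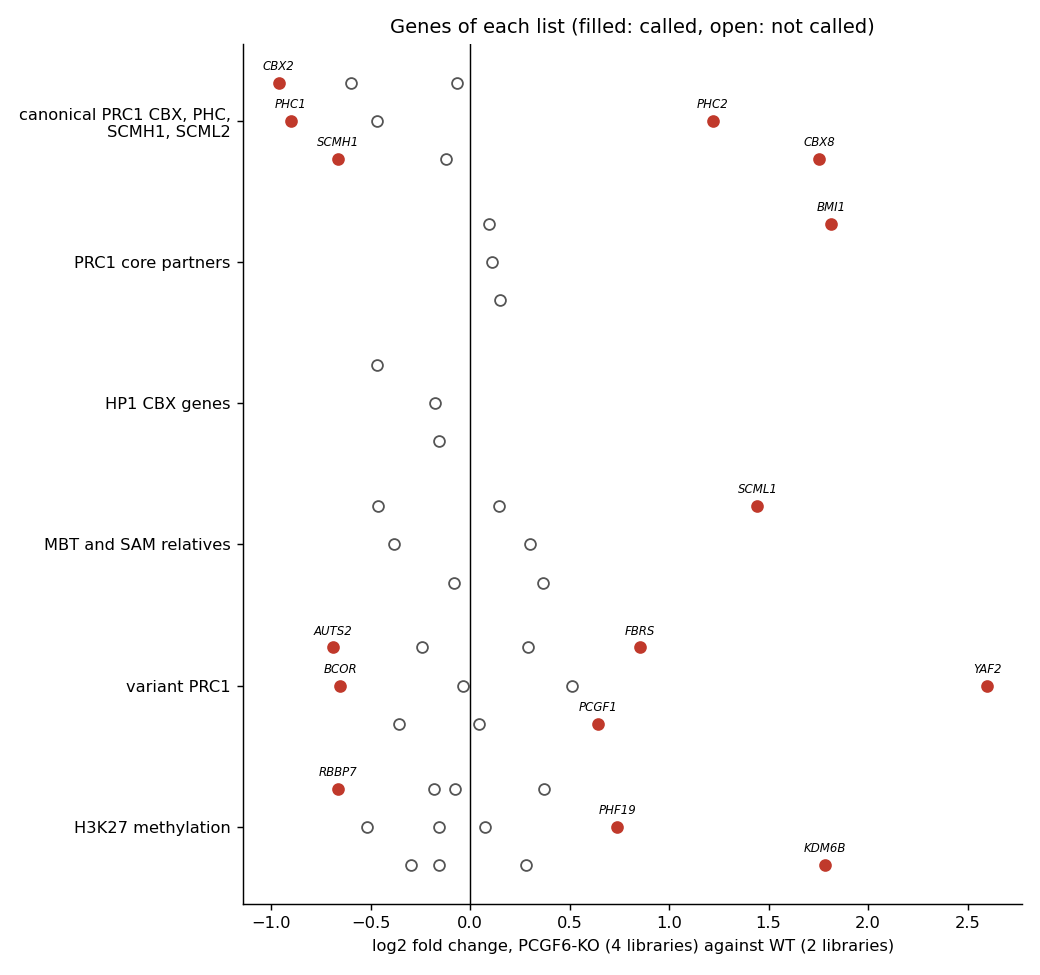
Log2 fold change in PCGF6-KO (4 libraries) against WT (2 libraries) of the tested genes in each list, with 1 point for each gene, filled where the gene was called and open where it was not. The 9 CBX, PHC, SCMH1 and SCML2 genes spread from −0.96 to 1.76, with called genes on both sides of 0, and the called PRC1 core partner, BMI1, is higher.

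Markers of other cell types moved with the genotype. The 8 pluripotent markers summed to 7124 and 7430 CPM in WT and to between 6107 and 6325 CPM in the mutant libraries. None was at 0, POU5F1 stood at 0.01 (adjusted p = 0.907), and 1 of the 8, SOX2, was called lower. SOX2 was called in clone 2 (−1.04) and not in clone 1 (−0.41). NANOG stood at 0.40 (adjusted p = 0.0139) and DPPA4 at −0.44 (adjusted p = 0.00111), neither called. The 10 mesendoderm markers summed to 5.40 and 4.13 CPM in WT, 689 and 697 CPM in clone 1, and 925 and 919 CPM in clone 2, and all 9 tested were called higher. In WT 4 and 5 of those 10 were at 0, and none was in the mutants.

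The 8 neuroectoderm markers summed to between 350 and 395 CPM in WT and between 624 and 743 CPM in the mutants, with 3 called higher and 1 lower of 5 tested, and with 1 to 3 at 0 in each library. NES made up most of that sum, at 277 and 322 CPM in WT and between 592 and 709 CPM in the mutants. OTX2 was lower, at 72.0 and 72.1 CPM in WT and between 28.8 and 31.6 CPM in the mutants. The other 6 stayed below 2 CPM in every library. The 6 extraembryonic markers summed to between 3.96 and 5.28 CPM in WT and between 66.2 and 127 CPM in the mutants, with 4 called higher and 0 lower of 5 tested, and with 1 or 2 at 0 in WT. The remaining tested marker, KRT7, stood at −0.50 in PCGF6-KO (adjusted p = 0.33). In clone 2 against WT KRT7 was called lower, at −1.07 (adjusted p = 0.00261). The mesendoderm sum was highest in clone 2, although EOMES was lower there than in clone 1 (95.9 against 138 CPM). An order of 2 clones is a description only. The means of PHC2 and CBX8 were highest in clone 2, and those of CBX2 and PHC1 were lowest there. Of these 4, the adjusted p between the clones was under 0.05 for PHC2 and PHC1, and for PHC1 not without clone 1 replicate 1 or clone 2 replicate 1. The part of these cells in the changes of the CBX and PHC genes was not tested. In bulk RNA, fewer cells of a type and less RNA per cell cannot be told apart.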

How the data were processed

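RNA-seq was analysed in 6 libraries, 2 each of WT, clone 1 and clone 2. The ChIP-seq samples were not analysed here. The authors trimmed reads with Trim Galore (0.6.2), aligned them to GRCh38 with HISAT2 (2.1.0) and assigned them to genes with featureCounts, and deposited raw counts and gene lengths. Strand setting, multi-mapped reads and annotation release are not given in the sources used here. Replicates differed by more than sampling noise (chi-square per degree of freedom 2.40 in WT, 4.50 and 3.21 in the clones).

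filterByExpr on the 2 genotypes, TMM, glmQLFit and glmQLFTest of edgeR (4.0.16, limma 3.58.1, R 4.3.3) gave PCGF6-KO against WT, and a fit with 3 groups gave each clone. The SE is the log2 fold change divided by the root of F. Alternatives were DESeq2 (1.42.0), other normalizations, filters and thresholds, a replicate block, and leaving out each library. Steps were tested on simulated counts. Positions came from GENCODE release 44, promoters from RefSeq, with Python 3.11.15, pandas 2.3.3, numpy 2.4.6 and matplotlib 3.10.9.

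Named were all 9 genes, PCGF6, called genes of fixed lists, and the nearest genes in pattern and position. PHC1P1, the overlapping genes, other list genes with values and SOX2 or POU5F1 are named beside results that they touch, and were partly chosen after their values were seen. A further gene of the lists is not reported here, and the CBX shares are over the 4 CBX genes described. The 9 genes and all lists were chosen with earlier results of these data known.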

Additional observations from a re-analysis of the deposited data

Results flagged for a closer look

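For 4 of the 9 genes the effect differed between the clones by edgeR's quasi-likelihood test of the difference, with Benjamini-Hochberg adjustment over all genes tested, where 19.5% of all genes tested had an adjusted p under 0.05. On the log2 scale, clone 2 minus clone 1 was −0.48 for CBX6 (adjusted p = 0.000822), −0.43 for SCML2 (adjusted p = 0.0013), −0.21 for PHC1 (adjusted p = 0.0117) and 0.57 for PHC2 (adjusted p = 0.000466). Both libraries of clone 2 lay on the stated side of both libraries of clone 1 for each of these 4 genes. The genes were picked by the test on the same libraries, so this separation adds no support. None passed the fold threshold of 0.6. For PHC1 the difference was −0.12 (adjusted p = 0.177) without clone 1 replicate 1 and −0.18 (adjusted p = 0.111) without clone 2 replicate 1, and for SCML2 it was −0.28 (adjusted p = 0.0413) without clone 1 replicate 2. For PHC1 and PHC2 the mean of clone 2 was farther from WT than that of clone 1, and both clones were called in the same direction. For SCML2 clone 1 stood at 0.07 and clone 2 at −0.36 against WT. Each clone is 1 line, so a difference between deletions and a difference between clones cannot be told apart.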

How the results depend on the processing

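The 5 calls in PCGF6-KO against WT ranged from 4 to 6 over the alternatives. CBX2, PHC1 and PHC2 were called in each fit, and CBX8 in each fit that tested it, since a minimum of 10 counts in every library removes it. CBX6 was added under DESeq2 (−0.60), upper-quartile normalization (−0.63) and the mean of the clones (−0.62). A fold change over 1.5 in place of the log2 threshold of 0.6 added it as well. Calls ranged from 3 to 6 in clone 1 and from 6 to 8 in clone 2. Between the clones, 0 calls became 4 with no fold threshold, and leaving out single libraries gave 0 to 1. The direction turned only for genes that were not called: PHC3 in clone 2 against WT was −0.028 under upper-quartile normalization and ranged from −0.15 to 0.18 when 1 library was left out (−0.0034 without WT replicate 1), and SCML2 in clone 1 ranged from −0.068 to 0.22. The change in the share of CBX2 among the 4 CBX genes, in percentage points, was −5.01, and −5.21 with counts not divided by gene length. Shares over another set of CBX genes were not run. The cause of these changes was not tested.

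With the replicate block the calls were 5, 4, 7 and 0 in the 4 comparisons, and over all genes 3876 instead of 4167 in PCGF6-KO against WT. Whether the replicate numbers pair the samples is not clear. Deviations of same-numbered libraries correlated at Pearson's r = 0.042 and 0.053 between WT and the clones and 0.162 between the clones, and at Spearman's rho = 0.116, 0.110 and 0.232, across 15104 genes, which are not independent replicates. The block changed none of the calls of the 9 genes. With no fold threshold, the genes called went from 4167 to 6556 in PCGF6-KO, from 4379 to 8002 in clone 1, from 5197 to 8904 in clone 2 and from 1390 to 3442 between the clones, where DESeq2 called 810. The median over all genes stayed between −0.04 and 0.00 under TMM, RLE and upper-quartile normalization in the comparisons with WT. Depth limits CBX8 and CBX7 most, with 8 to 60 counts in a library.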
